A study of Homo sapiens with 6 samples.

Results

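The ubiquitin-specific proteases (USPs) are the largest family of human deubiquitinases. The members described here were the genes annotated as protein-coding whose symbol is USP followed by 1 or 2 digits and, where present, a letter. The multicopy USP17-like genes and the genes on chromosomes X and Y were left out, which removed 6 genes for their chromosome. The rule gave 45 of 62710 annotated genes, spread over 18 chromosomes, and it used no expression value. RNA-seq libraries were made from HCT116, a human colon cancer cell line, in 2 groups of 3. The sh-NC group carried a scrambled hairpin, and the sh-IGF2BP3 group carried a hairpin against IGF2BP3, an RNA-binding protein that stabilises many mRNAs. Both groups were lentivirally infected and puromycin-selected stable lines, with a single hairpin sequence and a single line per group. An effect of the hairpin, the line or the infection therefore cannot be told apart from an effect of IGF2BP3. Nothing in the labels says whether the 3 libraries of a group came from separate cultures, so p-values measure only the spread between these libraries.

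Ubiquitin is a small protein that is joined to lysines of other proteins, where it can mark them for the proteasome, change their location or alter what they bind. USPs are cysteine proteases that cut ubiquitin off again, and members differ in substrates, in location and in the partner proteins that switch them on. USP7, also called HAUSP, is a broadly expressed nuclear member that removes ubiquitin from histone H2B among many other substrates. It is the member that the study itself mentions, in connection with histone H2B at SLC7A11, the cystine transporter gene.

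The designed hairpins are shown because their identity to USP transcripts bears on how a difference in a member can be read. Each is written 5′ to 3′ as the sense strand.

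sh-NC: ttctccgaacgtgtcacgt

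sh-IGF2BP3: ggctcagggaagaatttat

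All 19 bases of the sh-IGF2BP3 sequence were found in an IGF2BP3 transcript of GENCODE 29. Over the transcripts of the 45 members, the longest unbroken match to it was 7 to 10 bases, with a median of 8. The longest match of the sh-NC sequence was 6 to 9 bases, with a median of 7. No member held the whole of either hairpin. Unbroken identity does not measure matches of the kind that small RNAs make with their seed, which were not tested.

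Libraries held 16146718 to 23576469 counts. The hairpin's target, IGF2BP3, measured 90.3, 84.1 and 70.3 CPM (counts scaled to library size by TMM) in the sh-NC libraries and 60.2, 52.3 and 55.8 in the sh-IGF2BP3 libraries. The groups did not overlap, and the log2 fold change was -0.54 (SE 0.181, edgeR quasi-likelihood test, adjusted p = 0.126). SLC7A11 measured 187, 236 and 189 CPM in the sh-NC libraries and 104, 98.6 and 104 in the sh-IGF2BP3 libraries, so its groups did not overlap either. Its log2 fold change was -0.996 (SE 0.183, edgeR unadjusted p = 5.5e-05, adjusted p = 0.103). Among 10 colon epithelial markers, 7 had enough counts for testing, and their summed level was 1613 to 3004 CPM in sh-NC and 2561 to 3312 CPM in sh-IGF2BP3. Most of that sum was KRT8 and KRT18. KRT8 (log2 fold change 0.51) and CDX2 (0.59) were higher and CDH17 (-1.18) lower at an unadjusted p under 0.05, and the edgeR adjusted p was 0.189 or more for each. VIL1 had 9 counts over the 6 libraries, and CDX1 and LGALS4 had 1 each. Markers of leukocytes, endothelium, fibroblasts and mural cells summed to 31.7 to 55.2 CPM in sh-NC and 33.5 to 65.6 CPM in sh-IGF2BP3. Most of that sum was COL1A1, COL1A2 had 0 counts in all libraries, and PTPRC, which marks leukocytes, had 1 count in all.

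Measured per gene length, USP22 was the most abundant member. USP22 is the deubiquitinase of the SAGA transcription complex, and its mean over the 6 libraries was 67.1 FPKM (counts scaled to library size and gene length). USP5, which takes apart unanchored ubiquitin chains, followed at 52.3 FPKM. USP10, which binds the stress granule proteins G3BP1 and G3BP2 and acts on stalled ribosomes, was close behind at 51.7 FPKM. USP22 was first in both groups, but the order of the next pair was not the same in both. USP10 was above USP5 in sh-NC, at 51.9 against 43.6 FPKM, and below it in sh-IGF2BP3, at 51.4 against 60.9 FPKM. USP39, a splicing factor whose protease fold lacks catalytic residues, measured 32.6 FPKM. USP7 had rank 5 of the 45 in the overall mean at 29.02 FPKM, with 32.3 ± 3.2 (SD, n = 3) in sh-NC and 25.7 ± 5.1 (SD, n = 3) in sh-IGF2BP3. In sh-IGF2BP3 alone it was below USP19 and level with USP1. USP1, which acts on the DNA repair proteins FANCD2 and PCNA, was next at 26.2 FPKM, and USP19, anchored in the endoplasmic reticulum, was at 25.8 FPKM.

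Of the 45 members, 40 had a mean of at least 1 FPKM and 16 of at least 10. The low end was formed by USP49 at 0.887 FPKM, USP50 at 0.377, USP6 at 0.0443 and USP44 at 0.0349. USP29 had 0 counts in all 6 libraries, which allows up to 0.124 to 0.196 CPM per library at 3 counts, a limit that covers counting error only. USP44 had 2 to 5 counts per library. USP29 and USP44 did not pass the filter on low counts, so 43 members were tested. USP6, a hominoid-specific member, passed with 10, 17 and 16 counts in sh-NC and 1, 9 and 6 in sh-IGF2BP3, so it entered mainly through the sh-NC libraries.

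**Figure D1:**
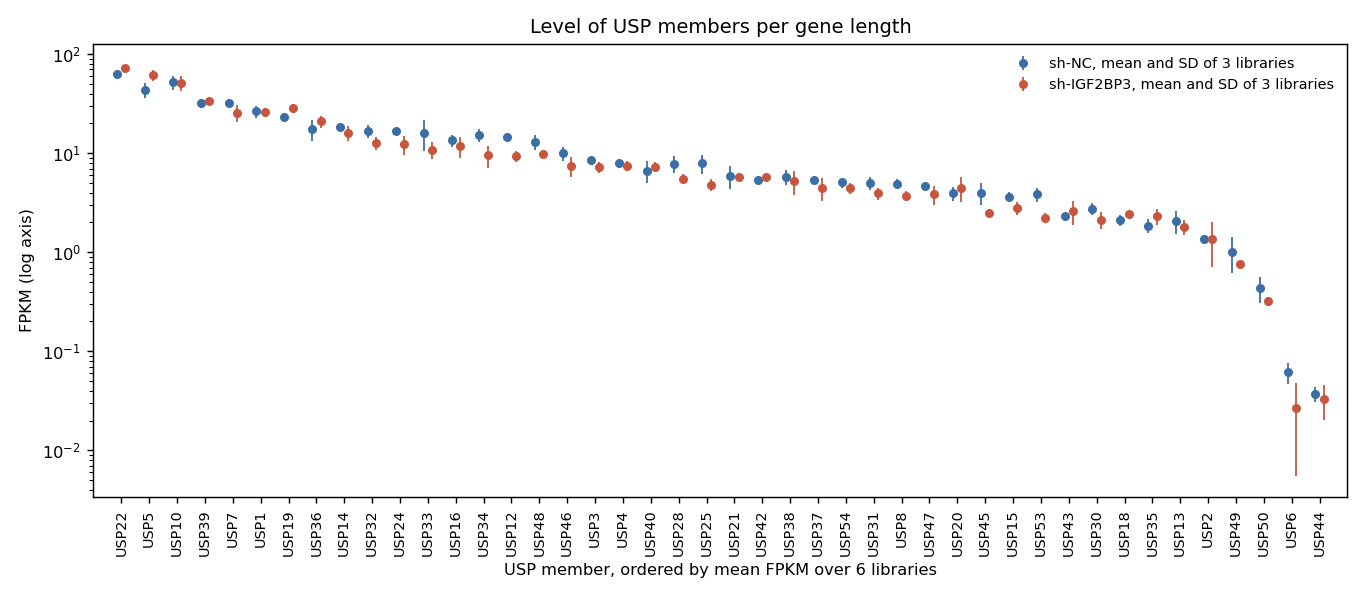
Level of the 44 members with any count, in FPKM on a log axis, as mean and SD of 3 libraries per group. Most members lie between 1 and 67.1 FPKM, and 4 lie below 1 FPKM in the overall mean, with USP6 and USP44 below 0.05.

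As a share of all counts, the 45 members together took 0.385%, 0.392% and 0.389% in the sh-NC libraries, a mean of 0.389% ± 0.0035 (SD, n = 3). In sh-IGF2BP3 the shares were 0.329%, 0.337% and 0.392%, a mean of 0.352% ± 0.0345 (SD, n = 3). The 95% Wilson interval of each share was at most 0.0029 percentage points to either side and covers counting error only. The first and second sh-IGF2BP3 libraries were below all sh-NC libraries, while the third was level with the highest of them. The groups therefore overlapped. In RNA from bulk cultures, fewer cells with a transcript and less of it per cell cannot be told apart.

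None of the 43 tested members passed an adjusted p of 0.05. The background was 0% of 16753 genes (edgeR quasi-likelihood test, Benjamini-Hochberg adjustment over all tested genes). The lowest adjusted p was 0.103, for USP53, and the lowest of any gene was 0.0563. At an unadjusted p under 0.05, 1 member was higher in sh-IGF2BP3 and 6 were lower. Over all tested genes, 13.6% were higher and 8.54% lower by the same rule. The counts of members are small, and their difference from these shares was not tested. In 4 members all values of sh-IGF2BP3 were above those of sh-NC, against 13.2% of all genes. In 7 members they were all below, against 11% of all genes. The values of the remaining 32 members overlapped between groups. The exact two-sided permutation p of a member whose groups do not overlap is 0.1, the smallest that 3 against 3 libraries allow. By edgeR the count at an adjusted p under 0.05 was 0, while DESeq2 called USP53 alone among the members (adjusted p = 0.0318). DESeq2 called 4.3% of 13087 genes higher and 1.05% lower.

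USP7 was not among the 7 members with an unadjusted p under 0.05. The gene (ENSG00000187555, chromosome 16, 8892097 to 8975328, minus strand, GRCh38) measured 325, 272 and 234 CPM in sh-NC and 193, 217 and 286 CPM in sh-IGF2BP3. The groups overlapped, since sh-IGF2BP3 3 was above sh-NC 2 and sh-NC 3. Its log2 fold change was -0.26 (SE 0.206) with a 95% interval from -0.69 to 0.18 (edgeR adjusted p = 0.474). The exact two-sided permutation test on its CPM gave p = 0.3. The interval holds both 0 and a decrease by more than the fold change of 1.5 (0.585 on the log2 scale) that the study used as a threshold. Leaving out 1 library at a time gave log2 fold changes from -0.45 to -0.12, with the smallest size when sh-NC 1, its highest library, was left out. USP7 is overlapped on the opposite strand by USP7-AS1, which had 0 counts in every library.

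The 6 members lower at an unadjusted p under 0.05 were USP53, USP25, USP12, USP34, USP45 and USP28. USP53 belongs, with USP54, to a pair long listed as lacking protease activity, and it is found at cell junctions. USP53 (ENSG00000145390, chromosome 4, 119212587 to 119295518, plus strand) measured 41.0, 44.0 and 49.1 CPM in sh-NC and 22.8, 29.4 and 29.8 CPM in sh-IGF2BP3. All sh-IGF2BP3 libraries were below all sh-NC libraries, and the ratio of means was 0.612. The log2 fold change was -0.71 with a 95% interval from -1.12 to -0.30 (edgeR adjusted p = 0.103).

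USP25 and USP28 are close relatives with a shared domain layout. USP25 acts in innate immune and Wnt signalling, and USP28 stabilises MYC. USP25 (ENSG00000155313, chromosome 21, 15729982 to 15880064, plus strand) measured 48.4, 66.1 and 65.5 CPM in sh-NC and 36.4, 35.1 and 45.5 CPM in sh-IGF2BP3. Its groups were apart, though sh-NC 1 and sh-IGF2BP3 3 were separated by only a few CPM. The log2 fold change of USP25 was -0.62 (SE 0.198, edgeR adjusted p = 0.122). USP28 (ENSG00000048028, chromosome 11, 113797874 to 113875572, minus strand) measured 36.8, 47.1 and 47.5 CPM in sh-NC and 29.1, 31.7 and 37.2 CPM in sh-IGF2BP3. The third sh-IGF2BP3 library was just above sh-NC 1, so the groups of USP28 overlapped. Its log2 fold change was -0.42 (SE 0.195, edgeR adjusted p = 0.218).

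USP12 needs the WD40 protein WDR48, also called UAF1, for activity, as do USP1 and USP46. USP12 (ENSG00000152484, chromosome 13, 27066156 to 27171811, minus strand) measured 71.1, 75.5 and 68.7 CPM in sh-NC and 43.9, 46.2 and 56.8 CPM in sh-IGF2BP3. The groups did not overlap, and the log2 fold change was -0.55 (SE 0.182, edgeR adjusted p = 0.124). The other WDR48-dependent members differed from USP12 in size. USP46, its closest relative, had a log2 fold change of -0.33 (SE 0.204, edgeR adjusted p = 0.353) and USP1 one of 0.05 (SE 0.196, edgeR adjusted p = 0.896). The differences between these 3 members were not tested.

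USP34, a very large protein that acts on axin in Wnt signalling, had 12.3 FPKM over all libraries, close to the 11.9 FPKM of USP12. USP34 (ENSG00000115464, chromosome 2, 61187463 to 61471087, minus strand) measured 252, 268 and 295 CPM in sh-NC and 133, 183 and 228 CPM in sh-IGF2BP3. The sh-IGF2BP3 libraries lay below the sh-NC libraries and spread widely, with sh-IGF2BP3 1 far below sh-IGF2BP3 3. The log2 fold change was -0.58 (SE 0.210, edgeR adjusted p = 0.141). USP24, its relative and another very large protein, measured 209, 190 and 195 CPM in sh-NC and 121, 148 and 189 CPM in sh-IGF2BP3. Its groups also did not overlap, narrowly, and its log2 fold change was -0.37 (SE 0.197, edgeR adjusted p = 0.282).

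USP45 works with the nuclease ERCC1-XPF in DNA crosslink repair. USP45 (ENSG00000123552, chromosome 6, 99432325 to 99521728, minus strand) measured 23.98, 35.6 and 34.0 CPM in sh-NC and 20.3, 19.8 and 22.9 CPM in sh-IGF2BP3. The groups did not overlap, with sh-NC 1 close to the sh-IGF2BP3 libraries. The log2 fold change was -0.57 (SE 0.213, edgeR adjusted p = 0.148).

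USP5 was the 1 member higher at an unadjusted p under 0.05. USP5 (ENSG00000111667, chromosome 12, 6852148 to 6866632, plus strand) measured 201, 156 and 122 CPM in sh-NC and 256, 239 and 203 CPM in sh-IGF2BP3. The groups did not overlap, but sh-NC 1 and sh-IGF2BP3 3 nearly met. The log2 fold change was 0.54 with a 95% interval from 0.10 to 0.98 (edgeR adjusted p = 0.153). USP13, its relative, which binds ubiquitin chains but cuts them poorly, had a log2 fold change of -0.11 (SE 0.220, edgeR adjusted p = 0.798).

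**Figure D2:**
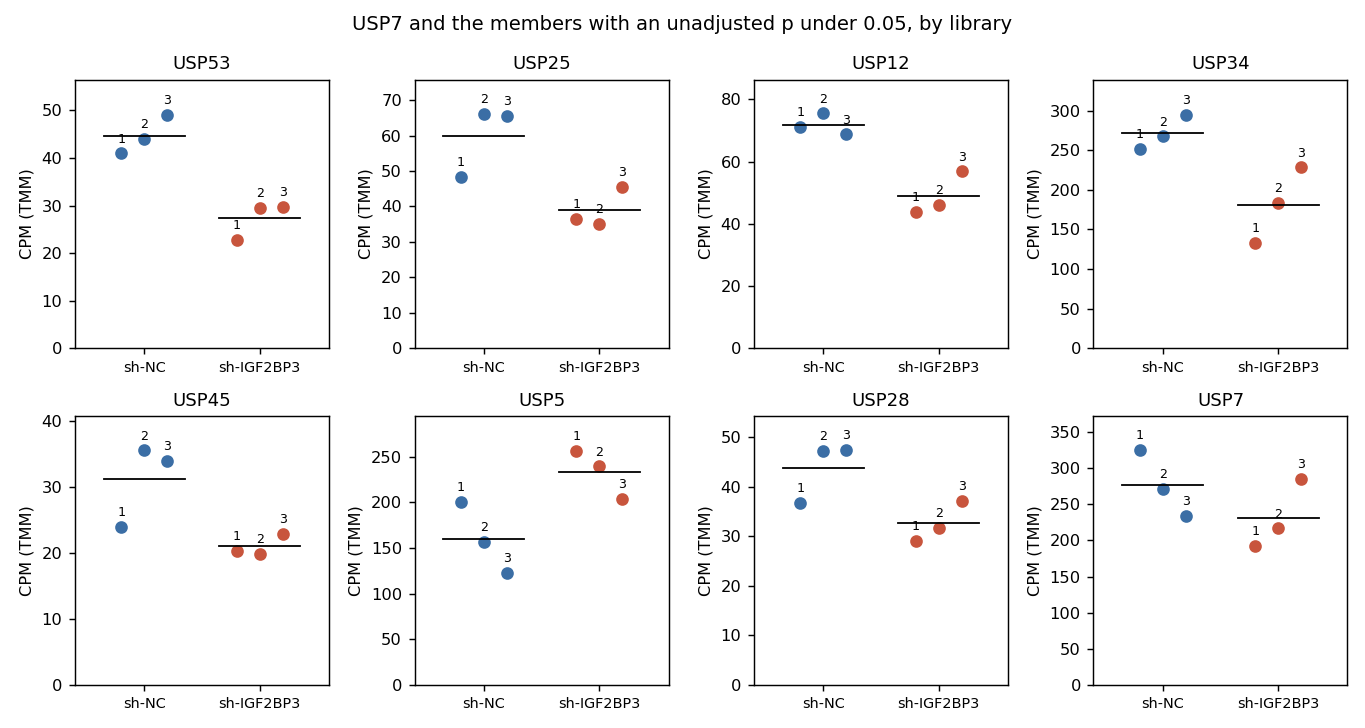
CPM (TMM scaled) in each of the 6 libraries for USP7 and the 7 members with an unadjusted p under 0.05, with replicate numbers beside the points and a line at each group's mean. The groups are apart for 6 of the 8 genes and overlap for USP28 and USP7.

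Leaving out sh-NC 1 gave the calls that the full set of libraries did not. Without it, edgeR called 1 member higher, USP5, and 4 lower, USP53, USP25, USP45 and USP33, at an adjusted p under 0.05. In that setting 10% of 17379 genes were called higher and 5.75% lower. The adjusted p was 0.0158 for USP25, 0.0180 for USP53, 0.0213 for USP5 and 0.0235 for USP45. Leaving out any of the other 5 libraries called 0 members. The count of members lower at an unadjusted p under 0.05 went from 6 to 2 without sh-NC 2, and the count higher went from 1 to 0 without sh-NC 2, sh-NC 3, sh-IGF2BP3 1 or sh-IGF2BP3 2 and to 3 without sh-NC 1. USP53 and USP25 were below that p in each of the 6 fits that left out a library. The share of all genes below that p was not computed for these fits.

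The role groups are described by their counts at an unadjusted p under 0.05, beside 13.6% higher and 8.54% lower over all tested genes, and they hold too few members for a share to be read against these. The groups are not complete lists of a role, and USP7, which also acts on H2B, was placed under genome maintenance. Of the 5 tested members placed under histones H2A and H2B (USP3, USP16, USP22, USP42 and USP49), 0 had an unadjusted p under 0.05 by edgeR. Their log2 fold changes ran from -0.32 for USP49 to 0.27 for USP22. Genome maintenance and replication held 7 tested members, of which USP28 and USP45 were lower and 0 higher. The other 5 were USP7, USP1, USP37, which stabilises cyclin A, USP47, which acts on DNA polymerase beta, and USP48. Members of RNA processing and the nucleolus (USP4, USP15, USP36 and USP39) had 0 past it, and USP36, the nucleolar member, had a log2 fold change of 0.32 (SE 0.222, edgeR adjusted p = 0.403). The proteasome and free-chain group held USP5 as the 1 higher member, while USP14, which sits on the proteasome, had a log2 fold change of -0.11 (SE 0.192, edgeR adjusted p = 0.757).

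In the membrane group, USP19 and USP35 had log2 fold changes of 0.34 and 0.39 with groups that did not overlap, and USP30, which opposes mitophagy at the outer mitochondrial membrane, had -0.29. The edgeR adjusted p was 0.281 for USP19, 0.346 for USP35 and 0.486 for USP30. Of the 7 endosome, trafficking and ribosome members, 0 had an unadjusted p under 0.05 by edgeR. USP8, which acts on receptors at the endosome, had non-overlapping groups at 93.3, 103 and 101 CPM in sh-NC and 68.1, 82.02 and 88.4 CPM in sh-IGF2BP3 (edgeR adjusted p = 0.312). USP6 had the lowest log2 fold change of the family, -1.10, with a 95% interval from -2.41 to 0.21 at 59 counts in all. USP18, which removes the ubiquitin-like protein ISG15, measured 8.30, 9.63 and 7.26 CPM in sh-NC and 10.7, 10.1 and 10.3 CPM in sh-IGF2BP3. The sh-IGF2BP3 libraries were all above, and the edgeR adjusted p was 0.485. Over the 36 tested members with an unadjusted p of 0.05 or more, log2 fold changes ran from -1.10 to 0.39 and adjusted p from 0.245 to 0.928.

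**Figure D3:**
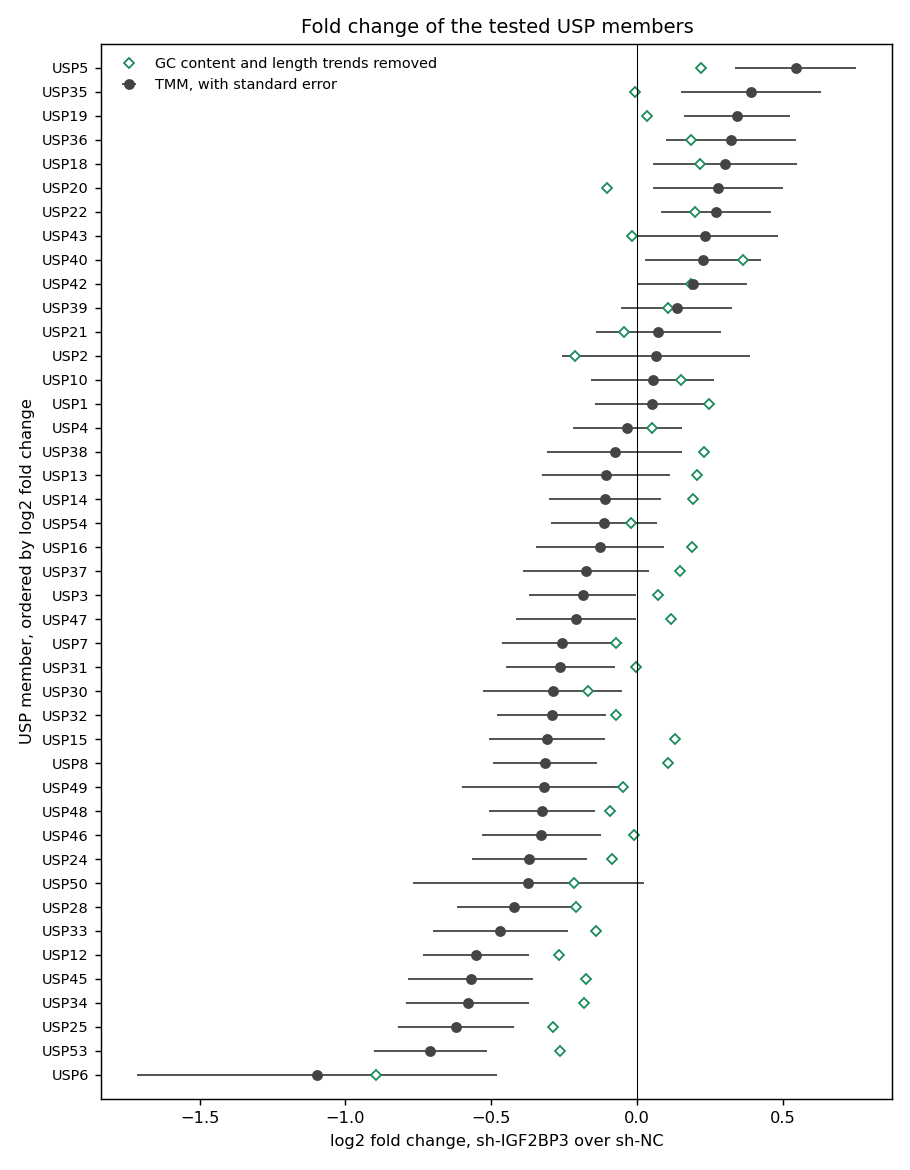
Log2 fold change of sh-IGF2BP3 over sh-NC for the 43 tested members, as filled points with their standard error after TMM scaling and as open diamonds after each library's trends with GC content and length were removed. TMM values run from -1.10 to 0.54, and 34 of the 43 diamonds are nearer 0 than the filled point.

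Across the 43 tested members, 15 log2 fold changes were above 0 and 28 below, with a median of -0.18. Over all tested genes 49% were above 0 and the median was -0.01. The members also differed from the average gene in sequence. The median GC content of their longest transcript was 45.3%, against 48.7% for all tested genes. The median gene length, taken from the deposited counts and FPKM and not from that transcript, was 7763 bases against 4706. Log2 fold change moved with GC content over the whole table, with Spearman's rho 0.611 across 16236 genes. Across the 43 members rho was 0.731, and with length it was -0.475 (-0.261 over all genes). These values are across genes of the same 6 libraries and are descriptions only, and GC content and length were themselves related in the members (rho -0.405).

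Of the 14 members above the median GC content of all tested genes, 12 had a log2 fold change above 0, with a median of 0.25. Among all genes on that side, 74.1% were above 0. Of the 29 members at or below that GC content, 26 had a log2 fold change below 0, with a median of -0.31. Among all genes on that side, 24.3% were above 0. USP5 has 57.8% GC, and the 6 members lower at an unadjusted p under 0.05 have 34.5% to 43.6%.

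Each library's smooth trend with GC content and length was then removed. With the trends removed, the family's median log2 fold change was -0.01, beside 0.01 for all genes, and 20 members were above 0 and 23 below. The 6 lower members then had log2 fold changes from -0.29 to -0.17 with unadjusted p from 0.0715 to 0.315, and USP5 had 0.22. At an unadjusted p under 0.05, 0 members were lower (edgeR; background 3.54%) and 1 was higher (background 6.86%). That member was USP40, with log2 fold change 0.36 and an edgeR adjusted p of 0.479. USP7 had -0.07. A sign change was seen in 15 of 43 members. USP8 was among them, going from -0.316 to 0.105. USP19 went from 0.341 to 0.034 and USP24 from -0.370 to -0.085, while USP18 went from 0.301 to 0.215. IGF2BP3 itself went from -0.54 to -0.22 (edgeR adjusted p = 0.683), so removal of the trends also took away part of the difference in the hairpin's own target. SLC7A11 went from -0.996 to -0.57 (edgeR unadjusted p = 0.0062, adjusted p = 0.422). Whether the trends are technical or belong to the cells was not tested.

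**Figure D4:**
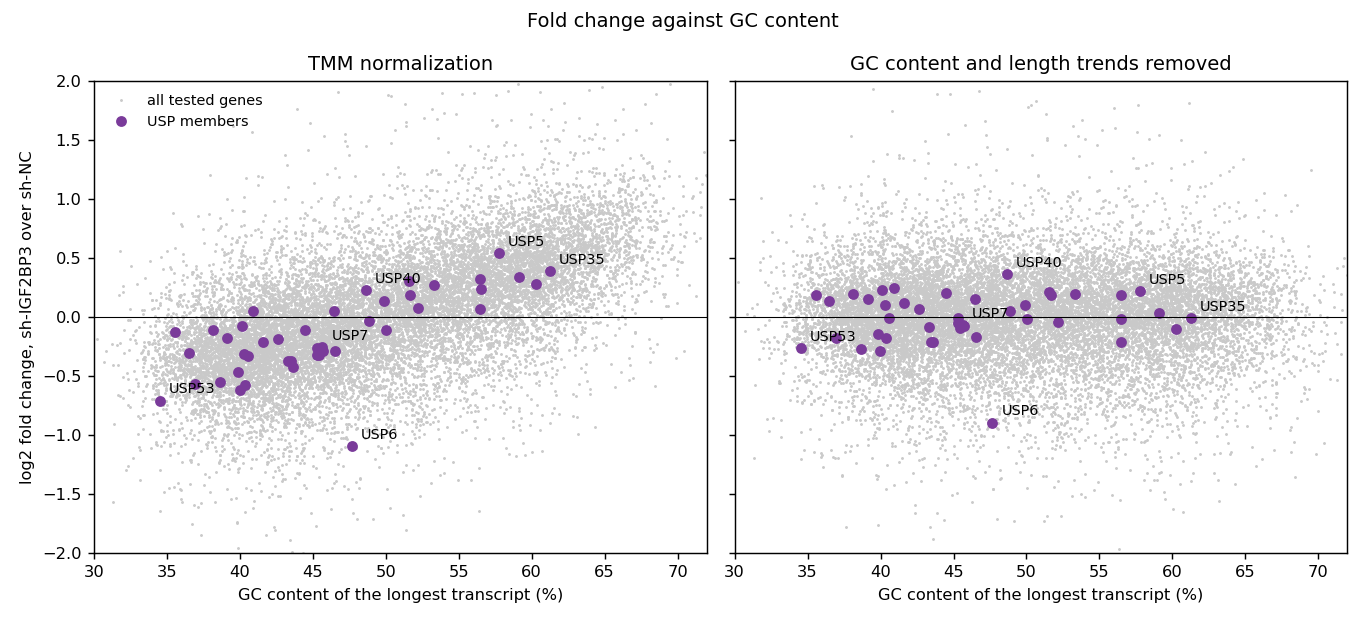
Log2 fold change of sh-IGF2BP3 over sh-NC against GC content of the longest transcript, for all tested genes (grey) and the 43 USP members (purple), after TMM scaling and after removal of the GC content and length trends. Members lie along the slope of the grey points with TMM (rho 0.731) and around 0 without the trends (rho 0.127). The axes leave out 46 grey points in the first panel and 41 in the second.

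Related members with different GC content are set side by side as a description. In 15 pairs of relatives both members were tested. The member with more GC had the higher log2 fold change in 11 of them with TMM and in 8 with the trends removed. In the 6 pairs at least 10 percentage points of GC apart, this held for 6 of 6 with TMM and for 3 of 6 with the trends removed. The trends were fitted on GC content over all genes, so a weaker order after their removal follows from the fit. The order with TMM was not compared with pairs of unrelated genes. USP20 and USP33, relatives that act in receptor recycling, have 60.3% and 39.9% GC and log2 fold changes of 0.28 and -0.47, which became -0.10 and -0.14. USP35 and USP38 have 61.3% and 40.1% GC and log2 fold changes of 0.39 and -0.08, which became -0.01 and 0.23. USP53 and USP54 have 34.5% and 50.04% GC and log2 fold changes of -0.71 and -0.12, which became -0.26 and -0.02. The exceptions among all 15 pairs with TMM were USP2 with USP21, USP6 with USP32, USP16 with USP45, and USP8 with USP50. These pairs are at most 4.3 percentage points apart.

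The libraries of a group were not alike for the family. For each library, the median over members of their deviation from their own 6-library mean was taken on the log2 CPM scale. The sh-NC libraries had 0.07, 0.14 and -0.01, and the sh-IGF2BP3 libraries -0.28, -0.11 and 0.09. The lowest value of the 6 was in sh-IGF2BP3 1 for 20 of 43 members. The share of all tested genes with their lowest value there was not computed, so this count is not read as particular to the family. The third sh-IGF2BP3 library was above the other 2 of its group in 32 of 43 members, against 33% of all tested genes. With the trends removed, the median deviations were 0.11, 0.01 and -0.17 in sh-NC and -0.09, 0.03 and 0.13 in sh-IGF2BP3.

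**Figure D5:**
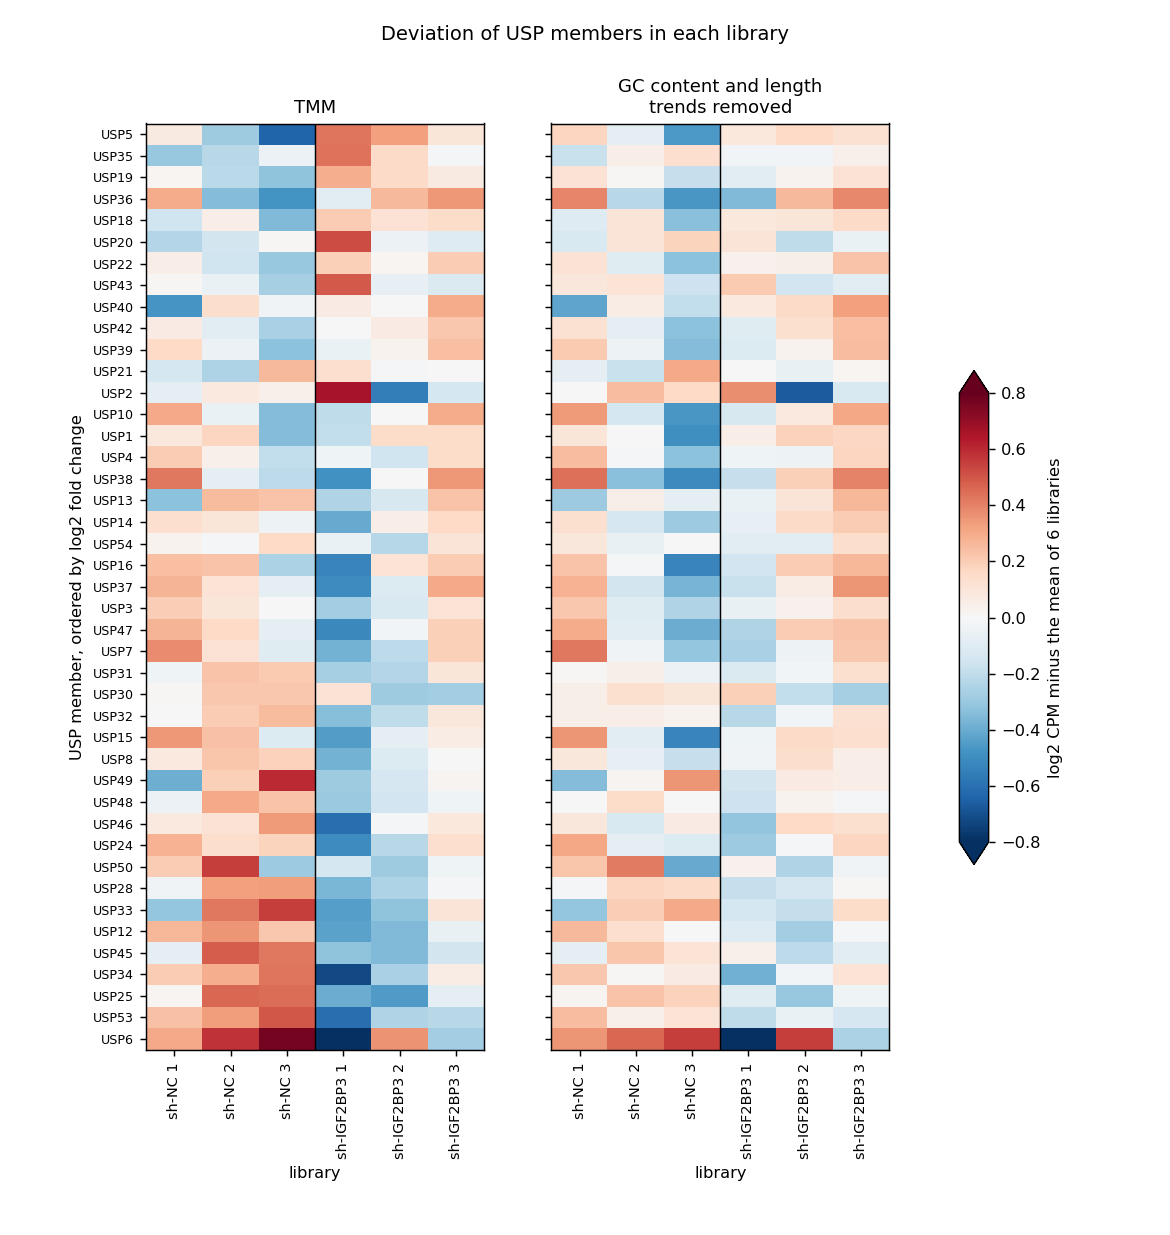
Deviation of each tested member in each library from its mean over the 6 libraries, in log2 CPM, with TMM (left) and with GC content and length trends removed (right), members ordered by log2 fold change. With TMM, sh-IGF2BP3 1 is lowest for 20 of 43 members, and the share of all genes was not computed. Colours end at 0.8 on either side.

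Some members share their locus with other genes, and the use of strand in counting is not given in the sources used here. USP2 is overlapped over 95.3% of its length by USP2-AS1 on the opposite strand, with 688 counts for USP2 and 678 for USP2-AS1 over the 6 libraries. USP50 shares 38.7% of its length with USP8 on the opposite strand, with 172 counts against 10116. USP49 shares 96.8% of its length with a second protein-coding annotation on the same strand, which had 75 counts against 1093. The values of USP2, USP50 and USP49 are uncertain for that reason, and so is that of USP6, whose 59 counts stand beside 944 of ZNF232, which overlaps it on the opposite strand. USP6 is also a recent copy related to USP32, and reads of near-identical copies may be split. Other members overlap genes as well, and not all are listed here. USP20 overlaps C9orf78 on the opposite strand over 2.47% of its length, with 2576 counts against 7217. USP13 shares 86.7% of its length with a second protein-coding annotation on the same strand, which had 10 counts against 3338.

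Other deubiquitinases were examined next. Of 33 genes of the UCH, OTU, Josephin, JAMM and MINDY classes, ZUP1 and the USP-fold genes CYLD and USPL1, 32 were tested and 0 passed an adjusted p of 0.05 by edgeR. At an unadjusted p under 0.05, 3 were higher and 5 lower, beside 13.6% and 8.54% of all tested genes. With the trends removed, 5 were higher and 1 lower, beside 6.86% and 3.54%. The median log2 fold change was -0.18, or 0.09 with the trends removed. JOSD2, a Josephin-domain protease, had the highest value, with 5.36, 4.92 and 4.45 CPM in sh-NC and 15.9, 12.7 and 8.29 CPM in sh-IGF2BP3. All sh-IGF2BP3 libraries were above, and its log2 fold change was 1.32 (SE 0.287, edgeR adjusted p = 0.103). JOSD2 has 69.4% GC, and with the trends removed its log2 fold change was 0.52. MYSM1, which acts on histone H2A, had -0.67 (SE 0.196, edgeR adjusted p = 0.112), or -0.14 with the trends removed. MPND, of the same JAMM class, had 0.83 (SE 0.285, edgeR adjusted p = 0.132), or 0.19 with the trends removed. MINDY2, which prefers long K48-linked chains, had -0.71 (SE 0.229, edgeR adjusted p = 0.122), or -0.31 with the trends removed.

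Partner proteins and the ubiquitin supply made up 30 tested genes, of which 0 passed an adjusted p of 0.05 by edgeR, with a median log2 fold change of 0.18. At an unadjusted p under 0.05, 7 were higher and 4 lower, beside 13.6% and 8.54% of all tested genes. With the trends removed, 6 were higher and 0 lower by edgeR, beside 6.86% and 3.54%. WDR48, the activator of USP1, USP12 and USP46, measured 46.7, 49.4 and 53.8 CPM in sh-NC and 30.8, 36.2 and 42.9 CPM in sh-IGF2BP3. All sh-IGF2BP3 libraries were below, with a log2 fold change of -0.45 (SE 0.191, edgeR adjusted p = 0.188), or -0.12 with the trends removed. The other proteins that bind USP12 and USP46 together with WDR48 lay on the other side of 0. DMWD had a log2 fold change of 0.53 (SE 0.204, edgeR adjusted p = 0.154) with all sh-IGF2BP3 libraries above, or -0.002 with the trends removed, and WDR20 had 0.19 (SE 0.195, edgeR adjusted p = 0.585). HGS and STAM2, which sort ubiquitinated receptors at the endosome together with USP8, had log2 fold changes of 0.62 and -0.62, on opposite sides of 0 (edgeR adjusted p = 0.122 and 0.124). HGS has 63.4% GC and STAM2 36.6%, and with the trends removed they had 0.23 and -0.25. Of the 11 tested partners of USP7 and of H2B ubiquitination, 2 were higher and 1 lower at an unadjusted p under 0.05, with a median log2 fold change of -0.06 (0.15 with the trends removed). UHRF1, a ubiquitin ligase held stable by USP7, had 0.90 (SE 0.307, edgeR adjusted p = 0.130) with sh-NC libraries from 112 to 359 CPM, or 0.75 with the trends removed. It is 1 of the 2 higher genes, and the 1 lower gene, which goes the other way, is not named here.

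UBB, a polyubiquitin gene, measured 299, 278 and 215 CPM in sh-NC and 605, 616 and 328 CPM in sh-IGF2BP3. All sh-IGF2BP3 libraries were above, though sh-IGF2BP3 3 was near sh-NC 1. Its log2 fold change was 0.97 (SE 0.241, edgeR adjusted p = 0.103). UBB kept most of that value with the trends removed, at 0.82. UBA6, an activating enzyme of ubiquitin, had -0.58 (SE 0.195, edgeR adjusted p = 0.126), or -0.16 with the trends removed.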

How the data were processed

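The authors deposited raw counts and FPKM per gene for 6 HCT116 libraries made with the Illumina TruSeq RNA kit, 3 sh-NC and 3 sh-IGF2BP3, grouped by GEO's labels. The submitters' processing notes name CASAVA and GRCh38. The aligner, counter and strand setting are not given in the sources used here. The deposited FPKM values equal counts scaled to library size and gene length, with 1 length per gene over all libraries. That length, worked out from the counts and FPKM, is the gene length used here.

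The main test used edgeR 4.0.16 in R 4.3.3: filterByExpr, TMM, and the quasi-likelihood test of sh-IGF2BP3 against sh-NC, with Benjamini-Hochberg adjustment over 16753 genes. The thresholds, an adjusted p of 0.05 and a fold change of 1.5, are those of the study's methods. Depth was 16146718 to 23576469 counts per library. Alternatives were DESeq2 1.42.0, RLE, other count filters, limma 3.58.1 on log2(FPKM + 1) or log2(FPKM + 0.1), the replicate number as a block, removal of GC content and length trends (splines with 5 degrees of freedom, GC content from the longest GENCODE 29 transcript, known for 96.9% of tested genes), and each library left out. Intervals of shares (Wilson, 95%) used scipy 1.17.1.

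Values in every library are given for USP7 and for members with an unadjusted p under 0.05, then for related pairs. Of the other lists, genes are named from the 3 with the smallest p per list, not all of them, and 1 such gene is not reported here. USP8, USP18, USP24 and the other members named by role were named after their values were seen. The members and lists were chosen with earlier results of these data known.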

Additional observations from a re-analysis of the deposited data

How the results depend on the processing

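The log2 fold changes of USP7, IGF2BP3 and the 7 members with an unadjusted p under 0.05 kept their direction in all 16 alternatives, and USP7 and IGF2BP3 stayed above an adjusted p of 0.05. USP53 passed it with DESeq2 (log2 fold change -0.69). Genes past an adjusted p of 0.05 and a fold change of 1.5, 0 in either direction with edgeR, numbered 562 higher and 137 lower with DESeq2, 687 and 150 with no filter on low counts, 1 higher with RLE or at least 10 counts in every library, and 1 lower with limma on log2(FPKM + 1) where a mean FPKM of 1 was required. Past an adjusted p of 0.05, 1 USP member, 2 other deubiquitinases and 1 partner were called with DESeq2, and 0, 1 and 2 with no filter.

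With the trends removed, the count of members lower at an unadjusted p under 0.05 went from 6 to 0 and the family's median from -0.18 to -0.008, with or without the block. Members higher went from 1 to 0 with trends removed and the block. Other deubiquitinases higher went from 3 to 5, and lower from 5 to 1 (0 with the block, 3 with no filter). Partners lower went from 4 to 0, with or without the block. The cause was not tested.

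Leaving out 1 library at a time gave 0 to 1739 genes called higher and 0 to 985 lower, both highest without sh-NC 1. These gene counts required a fold change of 1.5 beside the adjusted p of 0.05, while members and lists were called by adjusted p alone. Members called ran from 0 to 5, higher at an unadjusted p from 0 to 3 and lower from 2 to 8, with a median from -0.31 to -0.10. Other deubiquitinases ran from 0 to 6 called, 1 to 6 higher and 2 to 8 lower, and partners from 0 to 9 called, 2 to 12 higher and 0 to 6 lower. The share of all genes at an unadjusted p under 0.05 was not computed for these fits or for the replicate block. These counts are therefore not read as results about the members or the lists.

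Between same-numbered libraries, deviations from the group mean had r of -0.284, -0.186 and -0.043. Between libraries with different numbers, r ran from -0.258 to 0.323. Deviations from a mean of 3 libraries are tied to each other, so these values cannot decide whether the numbers pair the libraries. The study speaks of 3 pairs of control and knockdown cells, and the labels give only numbers. The main test did not pair them. With the replicate block, 1 member was higher and 7 lower at an unadjusted p under 0.05, with a median of -0.19, and USP7 had a log2 fold change of -0.27.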
